A study of Mus musculus with 121 samples.

Results

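The 8 genes described here are Nme1 and Nme2, which encode nucleoside diphosphate kinases, and Timm8a1, Timm8b, Timm9, Timm10, Timm10b and Timm13, which encode the small TIM chaperones of mitochondria. They are 8 of the 31053 genes counted in RNA of Per2::Luc mouse fibroblasts, and all 8 were among the 13292 genes that had at least 1 CPM (counts of a gene per 1000000 counts of the library) in at least 3 libraries. The genes were selected on measured values. Nme2 and Timm10b ranked 1 and 3 of 13292 genes by the p of the level difference between LH and HL under the deposited titles, and the other 6 genes, which ranked from 468 to 9889, were added by family. Level differences between treatments are therefore given as a description, and tests are kept for the course over the day in HH and under the titles, which that ranking did not use. Earlier results of these data were known when the genes were chosen.

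Nucleoside diphosphate kinases move the terminal phosphate of ATP onto other nucleoside diphosphates and so supply GTP, CTP and UTP. NME1 and NME2 are the abundant cytosolic members of the family, are encoded by neighbouring genes and form mixed hexamers. The small TIM proteins carry twin CX3C motifs and work in the intermembrane space of mitochondria, where the TIMM9-TIMM10 and TIMM8-TIMM13 complexes shield hydrophobic precursors between the outer membrane translocase and their insertion sites. TIMM10B belongs to the TIM22 complex, which inserts carrier proteins into the inner membrane.

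The cells were an immortalized ear fibroblast line from knockin mice that carry the PER2::LUC sv luciferase reporter, at passage 25, so that all groups share 1 genotype and 1 line. Medium rich in glucose and insulin (H) and medium poor in glucose (L) were each given for 12 h in 3 cycles of 24 h. HL received H and then L, LH received L and then H, and HH received H at each change. After a free-running interval, RNA was taken at 6 collections 4 h apart and sequenced by 3′DGE, which reads transcripts from their 3′ ends, and counts are therefore independent of transcript length. Under the deposited titles there are 21 libraries in the HL group, 22 in LH and 19 in HH. Each treatment and collection has 2 to 4 of them. The hours in the titles do not follow the collection order: they run 20, 12, 4, 8, 12 and 16 over collections 1 to 6 of HL and HH, and 20, 12, 16, 20, 12 and 16 in LH. Time was therefore counted from the collection number at steps of 4 h, on which all phases and hours given here rest. Sample labels number the replicates without saying whether they came from separate cultures, and p-values measure the spread between these libraries. The paper states that N in its legends counts biological replicates unless it says otherwise.

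Library totals ran from 104912 to 11619095 counts, with a median of 5825881 and a second lowest of 2136819. The library of 104912 counts, replicate 2 of LH at the second collection, had 18 counts of Nme1 and 0 of Timm10, and a count of 0 there allows up to 28.6 CPM (3 counts). Without it, no call on the 8 genes changed. All 8 fibroblast markers were found in every library, led by Col1a2 (mean 14955 CPM) and Col1a1 (6785 CPM), with sums of 18326 CPM to 42549 CPM. Summed epithelial markers reached at most 4.57 CPM and summed adipocyte and muscle markers at most 12.6 CPM. Endothelial Pecam1, Cdh5 and Tek had a median of 0, while Kdr averaged 172 CPM. Immune markers summed to at most 7.06 CPM in HL and 5.95 CPM in HH, and to 124 CPM in 1 library of LH, the one of 104912 counts.

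The names of the libraries are in conflict. Files of counts bear library numbers, and a read summary published with the data names libraries by number. For 40 of 62 libraries the name found by number was not that of the title or was not listed, and 31 are numbered to another treatment. By number, 57 libraries remain, 19 in each treatment, and LH has 1 library at the fifth collection. HH holds the same 19 libraries at the same collections under both assignments. Results for HL and LH are therefore given by titles and by numbers, and the values of HH rest on an assignment that is not in dispute. Tests of HH that are fitted together with HL and LH share their estimate of spread, and so depend on the names. Which of the names is right was not tested.

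By number, the course of HL and of LH is tied to the comparison that selected the genes. HL by number is made of 3 libraries titled HL, all at its first collection, and 16 titled LH at the later collections. LH by number is made of 15 libraries titled HL at its first 5 collections and 4 titled LH at the sixth. A change from early to late collections by number is thus largely the titled difference of HL and LH. Courses by number of Nme2 and Timm10b, which that difference selected, are given with no test. Counts by number in HL, LH and the interaction are therefore over the other 6 genes, and these and the p-values behind them are given as a description, since they are not independent of that difference.

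The starts of 4 of the 8 genes hold the palindrome CACGTG, the E-box bound by the CLOCK-BMAL1 dimer and by MYC, within the 300 bases around a RefSeq start (250 before and 50 after, GRCm38.p6). Of all 27025 genes with such a window, 8.09% hold it. Nme1 has it in both of its windows, Timm9 and Timm8a1 each have a pair, and Timm10 has a single copy. Nme2, Timm8b, Timm10b and Timm13 have none in these windows, which says nothing of sites elsewhere. The windows of the neighbours Nme1 and Nme2, whose courses in HH were alike, and of the partners Timm9 and Timm10 are shown 5′ to 3′ on the strand of the gene, with CACGTG in capitals. They lie at chr11:93968223-93968522 (Nme1, minus strand), chr11:93956207-93956506 (Nme2, minus strand), chr12:71136626-71136925 (Timm9, minus strand) and chr2:84826771-84827070 (Timm10, plus strand).
Nme1: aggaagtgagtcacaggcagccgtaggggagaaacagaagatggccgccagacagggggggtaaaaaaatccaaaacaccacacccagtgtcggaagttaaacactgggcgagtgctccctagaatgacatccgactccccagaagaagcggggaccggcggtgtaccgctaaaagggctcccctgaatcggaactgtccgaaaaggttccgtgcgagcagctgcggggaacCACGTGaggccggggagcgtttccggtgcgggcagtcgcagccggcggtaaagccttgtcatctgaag
Nme2: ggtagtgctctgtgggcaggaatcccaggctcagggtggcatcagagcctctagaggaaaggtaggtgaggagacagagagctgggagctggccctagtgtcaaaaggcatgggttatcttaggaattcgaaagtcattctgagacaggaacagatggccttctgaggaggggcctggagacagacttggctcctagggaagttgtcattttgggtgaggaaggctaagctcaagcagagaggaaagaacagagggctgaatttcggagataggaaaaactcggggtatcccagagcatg
Timm9: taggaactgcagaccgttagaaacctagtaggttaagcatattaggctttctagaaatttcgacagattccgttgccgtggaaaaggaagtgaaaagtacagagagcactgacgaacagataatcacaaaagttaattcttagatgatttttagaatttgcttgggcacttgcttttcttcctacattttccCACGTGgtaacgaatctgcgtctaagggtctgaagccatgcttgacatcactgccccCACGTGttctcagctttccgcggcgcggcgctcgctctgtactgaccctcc
Timm10: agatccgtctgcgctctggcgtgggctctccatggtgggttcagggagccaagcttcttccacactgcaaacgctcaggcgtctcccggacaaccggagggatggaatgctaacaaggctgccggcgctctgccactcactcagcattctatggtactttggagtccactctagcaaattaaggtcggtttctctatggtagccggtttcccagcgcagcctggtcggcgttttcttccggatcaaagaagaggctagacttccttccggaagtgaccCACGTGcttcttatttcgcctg
The palindrome begins 18 bases before the start of Nme1 in the window shown (29 bases before in the other), 58 bases and 1 base before that of Timm9, and 28 bases after that of Timm10. A match of these letters is a description of the sequence and not of binding.

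Nme1 and Nme2 lie in tandem on the minus strand of chromosome 11, at 93956979 to 93968521 and 93949814 to 93956259 (mm10), with 719 bases between them. A readthrough gene, Gm20390, overlaps both, and it received 1 count in all 62 libraries. The paralogs are close in sequence, and the deposited counts are of uniquely aligned reads, so reads from stretches that they share are missing or uncertain. Timm13 (chromosome 10), Timm8b (chromosome 9) and Timm9 (chromosome 12) each overlap a gene of the opposite strand at their 3′ ends, by 43, 81 and 49 exonic bases. The partners of Timm13 and Timm9, Tmprss9 and Tomm20l, had 14 and 0 counts in all. Nkapd1, the partner of Timm8b, averaged 33.8 CPM, and whether counting used strand is not given in the sources used here, so the values of Timm8b are uncertain. Timm10b (chromosome 7) overlaps Arfip2 (mean 26.9 CPM) at its 5′ side, away from the reads of a 3′ method.

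Over the 62 libraries the mean level was 97.4 CPM for Timm13, 97.0 CPM for Nme1, 53.7 CPM for Nme2, 39.1 CPM for Timm10b, 26.9 CPM for Timm8b, 11.0 CPM for Timm9, 9.60 CPM for Timm10 and 0.863 CPM for Timm8a1. These levels are shares of the 3′ ends counted and are not scaled by length. Timm13 and Nme1 were not separated, with Timm13 above Nme1 in 36 of 62 libraries, and neither were Timm9 and Timm10, with Timm9 above Timm10 in 34. Nme1 exceeded Nme2 in all 62 libraries, an order that the overlap of Gm20390 with the 3′ end of Nme2 leaves uncertain. Timm8a1, which encodes the partner of TIMM13 that is lost in a human deafness-dystonia syndrome, had a median of 4.5 counts in a library and 0 counts in 6 libraries, so that its course is not resolved at this depth.

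The spread within a treatment and collection was larger than counting error for each of the 8 genes. It was 12.9% of the mean for Timm13, 15.8% for Nme2, 16.2% for Timm10b, 18.2% for Nme1, 30.8% for Timm9, 34.9% for Timm10 and 38.3% for Timm8b, where counting alone would give 5.42%, 8.58%, 9.18%, 6.81%, 20.0%, 14.0% and 10.4%. In the 55 libraries with over 1000000 counts in both runs, log2(CPM + 1) in the first and second run had a Pearson's r of 0.88 for Nme1, 0.82 for Timm8b, 0.78 for Timm10b, 0.77 for Nme2, 0.73 for Timm13, 0.67 for Timm9, 0.59 for Timm10 and 0.53 for Timm8a1.

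In HH, Nme1 was highest at the first collection. Its 4 libraries there had 123, 131, 145 and 147 CPM, while the other 15 ran from 76.3 CPM to 102 CPM with a median of 85.8 CPM, so that the collections did not overlap. Nme2 had the same order. Its 4 libraries at the first collection had 65.5, 68.9, 70.4 and 79.0 CPM, above the 15 later ones, which ran from 34.6 CPM to 58.8 CPM with a median of 44.6 CPM. None of the 6 small TIM genes was set apart in this way, and 0.557% of the 13292 genes tested were. That share covers only genes higher at the first collection, where both kinases were highest. Genes set apart at another collection, or by lower values, were not counted. The fitted level at the first collection was above the mean of the other 5 by 0.64 on the log2 scale for Nme1 and by 0.59 for Nme2.

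The edgeR quasi-likelihood test over the 6 collections did not call either change after Benjamini-Hochberg adjustment over all genes, with an unadjusted p of 0.000942 for Nme1 and 0.000658 for Nme2 in HH (adjusted p = 0.119 and 0.108). Of the 8 genes 0 were called in HH by titles, beside 0.293% of all genes, and 2 had an unadjusted p below 0.05, beside 8.61% of all genes. DESeq2 called 2, Nme1 and Nme2 (adjusted p = 0.0307 and 0.0239), beside 1.19% of the 11229 genes to which it gave an adjusted p. When the libraries of HL and LH that share the estimate of spread were assigned by number, edgeR called 1 gene in HH, Nme1 (adjusted p = 0.0428), and 0.803% of all genes. That call was lost without any 1 replicate of HH (adjusted p = 0.177 to 0.314), and also without replicate 1, 2 or 3 of HL or 2 or 3 of LH (0.0560 to 0.0750). Nme2 was called in HH by number without replicate 3 of LH (adjusted p = 0.0431), where Nme1 was not, and without replicate 4 of LH (adjusted p = 0.0347), where both were. JTK_CYCLE, a rank test for a 24 h rhythm, passed the threshold of 0.01 for Nme2 alone among the 8 (P = 0.00246, phase 2 h after the first collection, adjusted p over all genes = 0.488), beside 1.24% of all genes. For Nme1 it gave P = 0.0276. The JTK_CYCLE call of Nme2 was lost without replicate 1 (P = 0.0703), 3 (P = 0.0362) or 4 (P = 0.0218) of HH, and on TMM-scaled CPM it was lost (P = 0.0148) while Nme1 passed (P = 0.00529).

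**Figure D1:**
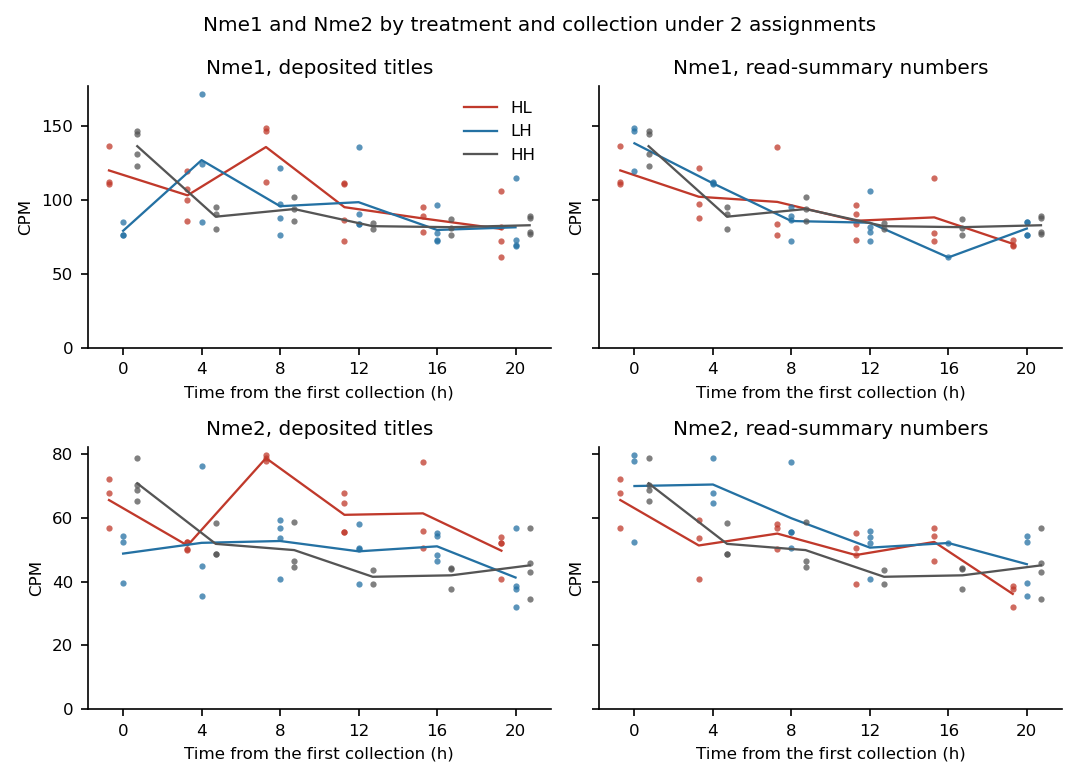
CPM of Nme1 (top) and Nme2 (bottom) against time from the first collection in h, by deposited titles (left) and by read-summary library numbers (right), where each point is 1 library, lines join the means of HL, LH and HH, and points are set slightly apart sideways. In HH, identical in both columns, the 4 libraries at 0 h lie above the other 15, and by number the means of HL and LH also start high for both genes.

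In HL and LH the course of both kinases depended on the names. By titles, the 3 libraries of HL at the first collection had 111, 112 and 136 CPM of Nme1, those at the third 112, 147 and 149 CPM, and the 4 at the sixth 61.0, 72.4, 81.9 and 106 CPM. LH by titles was lowest at its first collection, with 75.9, 76.3 and 85.0 CPM, and highest at the second, with 85.2, 124 and 172 CPM, where the highest value is that of the library of 104912 counts. The first and second collections of LH did not overlap, although the closest libraries differed little.

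By number, Nme1 was highest at the first collection in each treatment. HL then had 111, 112 and 136 CPM at the first collection and 69.0, 69.2 and 72.6 CPM at the sixth, and LH had 119, 147 and 149 CPM at the first and 75.9, 76.3, 85.0 and 85.2 CPM at the sixth. The first and sixth collections did not overlap in HL or in LH. Fitted levels fell by number from the first to the sixth collection by 0.76 in HL, 0.66 in LH and 0.64 in HH on the log2 scale (first over sixth). In both HL and LH by number, the libraries at the first collection are titled HL and those at the sixth are titled LH. Under edgeR the courses by titles had an adjusted p of 0.350 in HL and 0.258 in LH and were not called. By number the adjusted p was 0.371 in HL and 0.0541 in LH, and the latter ran from 0.0111 to 0.220 over the other settings tried, so that its side of the threshold depended on the setting. It was below 0.05 without replicate 4 of LH (0.0458) or of HL (0.0183). JTK_CYCLE gave P = 0.00592 for Nme1 in LH by number and P = 0.0526 by titles. Without any 1 of the 4 replicates of LH by number that P was 0.0256 to 0.0833.

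Nme2 in HL by titles peaked at the third collection, where its 3 libraries had 77.9, 78.9 and 79.8 CPM, above the 4 of the second collection (50.03, 50.4, 52.6 and 52.6 CPM) and those of the sixth (40.8, 52.0, 52.2 and 54.0 CPM). These 3 libraries are numbered to LH, at its first and second collections. By number, HL fell from 56.8, 68.0 and 72.3 CPM at the first collection to 32.2, 37.8 and 38.7 CPM at the sixth, and LH from 52.6, 77.9 and 79.8 CPM to 35.5, 39.7, 52.4 and 54.4 CPM. In HL the first and sixth collections by number did not overlap, and in LH they did. In both, the sixth holds libraries titled LH and the first those titled HL, and Nme2 was selected for its lower level in the former, so that this fall is no separate finding. By titles the edgeR adjusted p was 0.595 in HL and 0.744 in LH.

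The ratio of Nme1 to Nme2, on log2(CPM + 1) and without the library of 104912 counts, by titles averaged 0.74 ± 0.27 (SD, n = 21) for HL and 0.87 ± 0.29 (SD, n = 21) for LH. For HH the mean was 0.89 ± 0.20 (SD, n = 19). By number it was 0.85 ± 0.23 in HL and 0.71 ± 0.30 in LH (SD, n = 19 each), so that the order of HL and LH turned with the names. Nme2 was selected for its lower level in LH by titles, so the order of HL and LH is no separate finding. Over the 6 collections by titles its mean ran from 0.52 (the fifth) to 0.98 (the second) in HL, from 0.62 (the fifth) to 1.34 (the second, n = 2) in LH and from 0.76 to 0.97 in HH.

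Among the small TIM genes, edgeR called 1 change over collections by titles, that of Timm10 in LH (adjusted p = 0.0219), and this was the only call among the 8 genes in LH, beside 2.93% of all genes. Timm10 encodes the partner of TIMM9 in the hexameric chaperone. Its 3 libraries at the second collection had 0, 16.4 and 25.4 CPM, the 0 being the library of 104912 counts, and its 3 at the first collection had 6.93, 8.26 and 8.78 CPM. The other 16 libraries of LH lay between 5.41 CPM and 14.9 CPM. The call rested on few libraries. It was lost without replicate 1 of LH (adjusted p = 0.803), which holds the value of 25.4 CPM, without replicate 3 (adjusted p = 0.1004), with the first sequencing run alone (adjusted p = 0.0727), and by number (adjusted p = 0.795), where the library of 25.4 CPM belongs to the sixth collection. Without the library of 104912 counts the adjusted p was 0.00591. By number, 0 of the 6 genes added by family were called in LH, beside 1.05% of all genes, and 1 (Nme1) had an unadjusted p below 0.05, beside 14.3%.

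Timm10 was low at the first collection in HL also, with 5.52, 6.13 and 7.38 CPM against 8.21 CPM to 13.3 CPM in the other 18 libraries of HL by titles, and did not pass adjustment (edgeR, adjusted p = 0.538). By number the same 3 libraries overlapped the other 16 of HL, which had 5.41 CPM to 14.9 CPM. In HL by titles 0 of the 8 genes were called by edgeR, beside 0.301% of all genes, and 2 had an unadjusted p below 0.05, beside 8.98%. By number 0 of the 6 genes added by family were called, beside 0.394% of all genes, and 1 (Nme1) had an unadjusted p below 0.05, beside 5.49%. DESeq2 on titles called 0 of 8, beside 0.939% of the 10972 genes to which it gave an adjusted p. JTK_CYCLE passed none of the 8 in HL by titles and none of the 6 by number, where 0.466% and 1.06% of all genes passed. In LH it passed 0 of 8 by titles, beside 0.888% of all genes, and 2 of the 6 by number, Nme1 and Timm8b, beside 1.36%.

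Timm8b, a subunit related to TIMM8A, had 84.8 CPM in replicate 3 of HH at the sixth collection, the highest of the 62 libraries, where the other 3 libraries of that group had 17.5, 20.2 and 36.4 CPM. The same library had the highest Timm9 of all, 25.2 CPM. By number, Timm8b in LH had 26.7, 31.1 and 32.8 CPM at the first collection, 32.7, 34.5 and 41.3 CPM at the second and 13.3 CPM in the single library of the fifth, with a JTK_CYCLE P of 0.00322. That P was 0.0822 without replicate 1 of LH, 0.0328 without replicate 2 and 0.0195 without replicate 4. By titles Timm8b in LH had P = 1.0, and edgeR gave an adjusted p of 0.961 by titles and 0.458 by number.

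Timm13, the most abundant of the small TIM genes, had fitted levels over collections that differed by 1.19-fold in HL, 1.28-fold in LH and 1.28-fold in HH by titles (highest over lowest). By number they differed by 1.25-fold in HL and 1.55-fold in LH, where the highest is the single library of the fifth collection. In HH its 4 libraries at the first collection had 107, 110, 113 and 117 CPM, and the other 15 had 83.6 CPM to 109 CPM, so that they overlapped. Timm10b in HH was lowest at the sixth collection, with 21.5, 27.8, 32.5 and 38.1 CPM against 39.1, 42.0, 44.6 and 46.8 CPM at the first. Neither gene was called in any treatment, with edgeR adjusted p of 0.411 to 0.919 for Timm13 and 0.650 to 0.917 for Timm10b by titles. The JTK_CYCLE P of Timm13 in LH by titles was 0.0257, and 0.000542 without replicate 4 of LH. Timm9, by titles in HH, had 8.98, 9.88, 20.7 and 25.2 CPM at the sixth collection, and these values overlapped those of the other collections.

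**Figure D2:**
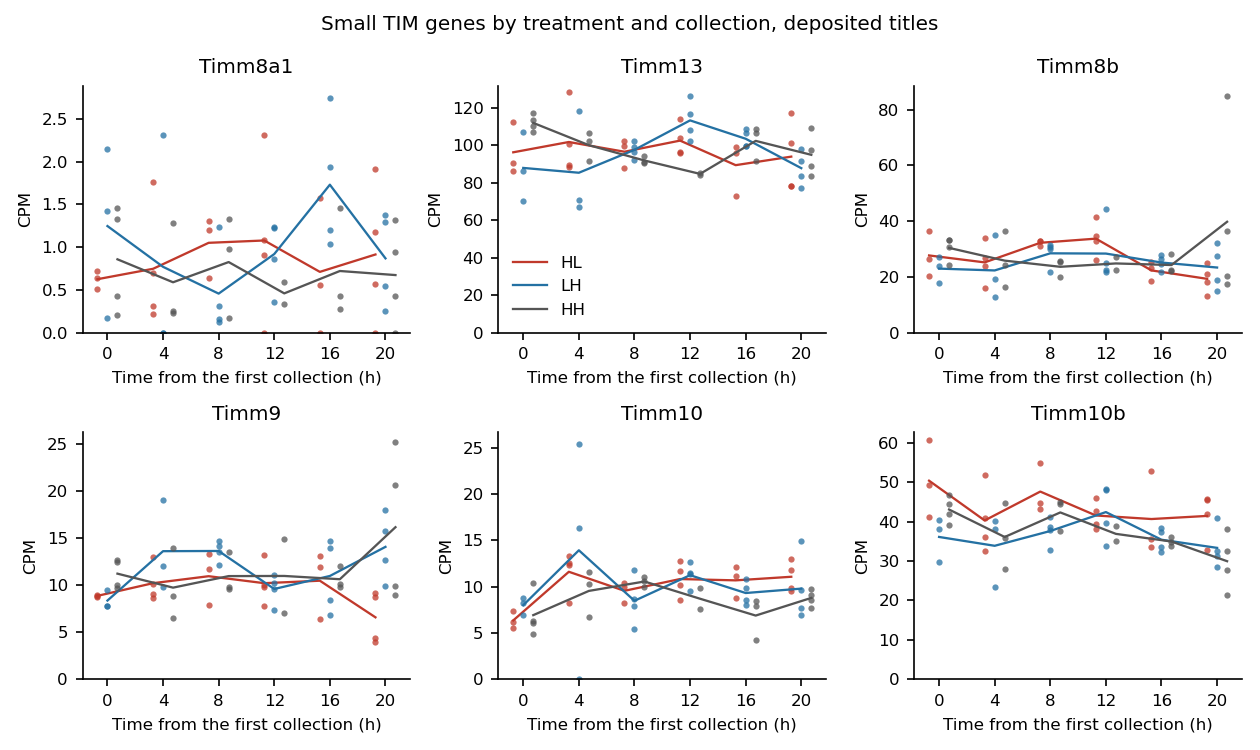
CPM of the 6 small TIM genes against time from the first collection in h by deposited titles, where each point is 1 library, lines join the means of HL, LH and HH, and points are set slightly apart sideways. Points of the treatments overlap at most collections, the single high point of Timm8b (84.8 CPM) is in HH at 20 h and that of Timm10 (25.4 CPM) is in LH at 4 h.

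The course over collections was not shown to differ between treatments for any of the 8 genes. The edgeR test of the treatment-by-collection interaction called 0 of 8 by titles, the smallest adjusted p being 0.263 (Nme1), beside 0.128% of all genes. At an unadjusted p below 0.05 there were 2 of 8, beside 11.6% of all genes, and DESeq2 called 0 of 8, beside 1.63% of the genes to which it gave an adjusted p. By number edgeR called 0 of the 6 genes added by family, with a smallest adjusted p of 0.728 (Timm8b), and 0% of all 13198 genes. At an unadjusted p below 0.05 there was 1 of the 6 by number, beside 5.98% of all genes.

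The level difference on which the genes were selected changed sign with the names, as 31 of the 38 libraries of HL and LH by number bear the title of the other treatment. By titles, Nme2 had 40.8 CPM to 79.8 CPM in HL (median 55.8 CPM) and 32.2 CPM to 76.3 CPM in LH (median 50.5 CPM), and the ranges overlapped. The fitted log2 fold change of LH over HL was -0.36 ± 0.08 (SE). Timm10b had 32.5 CPM to 60.7 CPM in HL (median 42.9 CPM) and 23.3 CPM to 48.3 CPM in LH (median 38.0 CPM), with a fold change of -0.29 ± 0.07 (SE, log2). These were the 2 of 8 genes past both level thresholds (0.01 over treatments and 0.05 in the comparison, unadjusted), beside 1.16% of all genes, and nothing is read from that count.

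By number the difference was 0.22 ± 0.08 (SE, log2) for Nme2, higher in LH, and 0.09 ± 0.07 for Timm10b. Nme2 was then the 1 of 8 genes past both thresholds, in the opposite direction, beside 1.34% of all genes. Without replicate 4 of LH by number it was no longer past them, at a log2 difference of 0.21. By titles Nme2 was lower in LH than in HL at all 6 collections, by 0.25 to 0.59 (log2), and by number it was higher in LH at all 6, by 0.08 to 0.46. For Timm9, LH over HL was 0.20 ± 0.14 by titles and -0.26 ± 0.15 by number (SE, log2). For Timm10 it was 0.04 ± 0.13 by titles and 0.31 ± 0.15 by number, and without the replicate of LH that holds the library of 25.4 CPM it was -0.13 by titles (replicate 1) and 0.13 by number (replicate 4). Timm13, at -0.03 ± 0.06 by titles and -0.04 ± 0.06 by number, was close to 0 under both. The median of the 8 genes was -0.06 by titles and 0.07 by number, against 0.00 over all genes under both assignments.

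Comparisons of HH with HL and with LH use the libraries of HL and LH on which the genes were selected. The values of HH are therefore set beside them as a description. Over HL by titles, HH was at -0.30 ± 0.08 for Nme2, -0.29 ± 0.07 for Timm10b and -0.15 ± 0.09 for Nme1 (SE, log2), with 2 of 8 genes past both thresholds, beside 1.2% of all genes. These 2 were Nme2 and Timm10b, which were selected for their higher level in the same libraries of HL. Nothing is read from the counts past the thresholds in the comparisons of HH. Over HL by number the same values were -0.03 ± 0.08, -0.09 ± 0.07 and -0.01 ± 0.07, with 0 of 8 past the thresholds, beside 0.568%. Over LH, HH was at 0.06 ± 0.08 for Nme2 and 0.00 ± 0.07 for Timm10b by titles, with 0 of 8 past the thresholds, beside 0.91%. By number HH over LH was -0.25 ± 0.08 for Nme2 and -0.18 ± 0.07 for Timm10b, with 1 of 8 past the thresholds (Nme2), beside 1.63%. Timm10 was at -0.29 ± 0.13 by titles and -0.41 ± 0.15 by number in HH over LH, lower in HH under both. Without the replicate of LH that holds the library of 25.4 CPM it was -0.13 by titles and -0.19 by number.

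**Figure D3:**
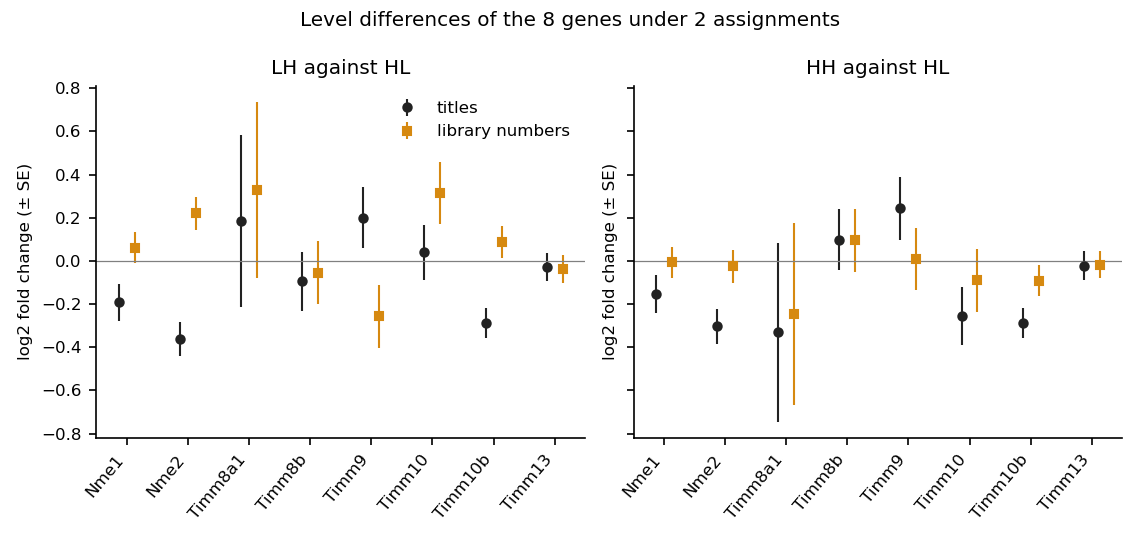
Fitted log2 fold change with its SE for LH against HL (left) and HH against HL (right), for each of the 8 genes, by deposited titles (black circles) and by read-summary library numbers (orange squares). Nme2 and Timm10b lie below 0 by titles in both panels and, for LH against HL, above 0 by number, while Timm13 lies near 0 throughout.

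Other genes of the same pathways were tested in the same fit. By titles, edgeR called 0 tested genes in HL or HH of the 5 other NME family genes, the 3 of the TIM22 complex, the 13 of the TIM23 complex and import motor, the 9 of the TOM complex, the 4 of the SAM complex, the 3 of the MIA40-ERV1 disulfide relay that folds small TIM proteins, the 18 twin CX9C relay substrates, the 24 inner membrane carriers, the 13 mitochondrial heat shock and presequence protease genes, the 26 nucleotide kinase and synthesis genes and the 39 MYC and nucleolar growth genes. A count of 0 over lists of these sizes is near the background, since 0.301% of all genes were called in HL and 0.293% in HH. In LH by titles, where 2.93% of all genes were called, it called 1 of the 24 carriers, 1 of the 13 heat shock and protease genes, 3 of the 39 growth genes and 0 of the other NME, TIM22, TIM23, TOM, SAM, disulfide relay and twin CX9C lists. These were Slc25a3, the phosphate carrier (adjusted p = 0.00547), the chaperonin Hspd1 (adjusted p = 0.00158, in the heat shock and growth lists), Odc1, the first enzyme of polyamine synthesis (adjusted p = 0.0098), and Rrp9 (adjusted p = 0.0178), each lower at the first collection than the mean of the other 5, by 0.32 to 1.24 on the log2 scale. None of these 4 was called in LH by number, where 1.05% of all genes were called and the list genes called were Tomm20, a receptor of the outer membrane translocase (adjusted p = 0.0487), the fibroblast marker Col3a1 (adjusted p = 0.0388) and clock genes.

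The clock list shows what the same test gave for genes with a known daily course. Its 14 genes gave 5 calls by titles for HL, 5 for LH and 7 for HH, and by number 5, 6 and 8. JTK_CYCLE passed 2 of 14 in HL and 5 in LH by titles and 10 and 7 by number, while its share of all genes was also larger by number in both (0.466% and 1.06% in HL, 0.888% and 1.36% in LH). In HH, Nr1d1, Tef, Dbp and Nr1d2 had the smallest p of the list, and Nr1d1 was 1.88 lower on the log2 scale at the first collection than at the mean of the others (edgeR, adjusted p = 4.0e-05). By titles the 7 clock genes called in HH were all lower at the first collection, and by number 7 of 8 were, the other being Cry1, which was 0.32 higher (log2, edgeR, adjusted p = 0.0191). Nme1 and Nme2 in HH were higher at the first collection, by 0.64 and 0.59. In the list of the 8 genes the median of the first collection over the others in HH was 0.22, against 0.02 over all genes. By titles this median was 0.25 for the other NME family, 0.16 for the TIM22 complex and 0.15 for the TIM23 list. The remaining pathway lists were lower, down to 0.02 for the MYC and nucleolar growth genes. A raised median was thus not particular to the 8 genes.

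The 8 genes did not rise and fall as 1 group over libraries. Over all 62 libraries, with labels not used, log2(CPM + 1) on TMM-scaled CPM of Nme1 and Nme2 had the highest Pearson's r of the 28 pairs, 0.65 (0.48 within treatment and collection by titles). Nme2 and Timm10b followed at 0.47, which was 0.12 within groups. Both were selected for their lower level in LH by titles, so the former value is not independent of the selection. The partners Timm9 and Timm10 had r = -0.14 (-0.00 without the library of 104912 counts) and Timm8b and Timm13 r = 0.24. Timm9 and Timm10b had the lowest, r = -0.49 (-0.37 within groups). In the 4 libraries of HH at the sixth collection, those with the most Timm9 (20.7 and 25.2 CPM) had the least Timm10b (21.5 and 27.8 CPM). The points share library preparation and depth, and these values are a description.

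**Figure D4:**
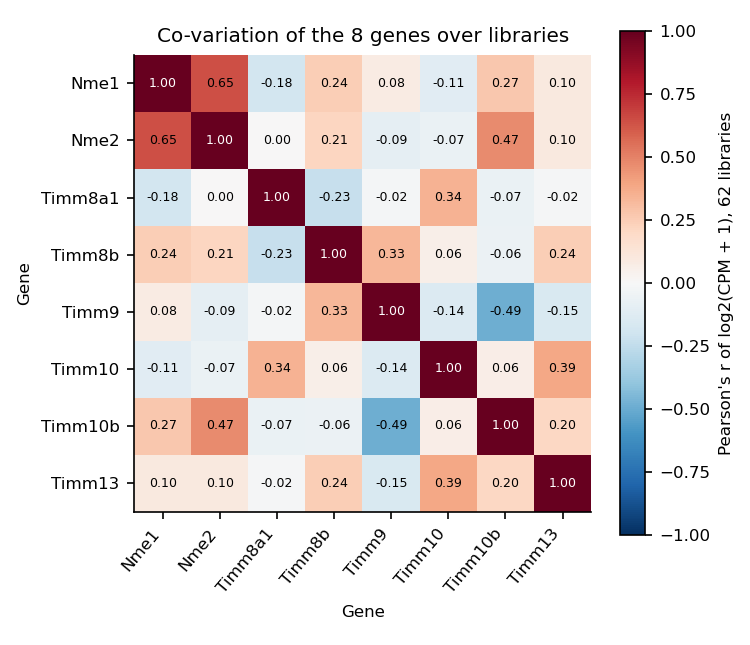
Pearson's r between log2(CPM + 1), on TMM-scaled CPM, of each pair of the 8 genes over 62 libraries, from -1 (blue) to 1 (red). Nme1 with Nme2 (0.65) is the strongest pair and Timm9 with Timm10b (-0.49) the lowest.

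The genes whose levels were most like the mean standardised level of the 8, among 5923 genes with a mean of at least 20 CPM, were Rplp1 (r = 0.81), Rpsa (r = 0.80), Uqcrq (r = 0.79), Rps25 (r = 0.78), Cox6c (r = 0.74) and S100a6 (r = 0.72) over 62 libraries. Rplp1, Rpsa and Rps25 encode ribosomal proteins, and Uqcrq and Cox6c encode subunits of respiratory complexes. Without the library of 104912 counts these r were 0.71 to 0.79. For Nme1 alone the most similar gene was Mif (r = 0.74), and Nme2 ranked 10 with r = 0.65.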

How the data were processed

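3′DGE libraries of 3 treatments and 6 collections were analysed. The sequencing service aligned reads to mm10, and the submitters' processing notes name bcl2fastq, STAR 2.6.0a and HTSeq 0.9.1. The authors deposited unnormalized counts per gene as 121 sets, 1 for each sequencing run. Its strand setting and its annotation were not given in the sources used here. Runs of a library were summed. Reads on no feature (18.4% to 29.1% of a run) and other closing lines entered no total or test. Symbols and positions came from GENCODE M21, and promoter windows from RefSeq.

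Genes reaching 1 CPM in 3 or more libraries were fitted with edgeR 4.0.16 (TMM, quasi-likelihood F tests over collections, interaction and levels, all treatments in 1 model, Benjamini-Hochberg at 0.05). JTK_CYCLE (exact null, period 24 h, 12 phases in steps of 2 h, threshold 0.01) was rewritten in Python 3.11.15. DESeq2 1.42.0, size factors, filters, the first run, a replicate block, library numbers and leaving out replicates were alternatives. Tests were checked on simulated data. Named genes are the 8, at most 4 called genes of a list, the 6 most similar genes and annotated neighbours. Mif and other genes singled out by similarity to 1 member were chosen after their values were seen. A result on 1 list gene is not reported here. The 8 genes and lists were chosen with earlier results of these data known.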

Additional observations from a re-analysis of the deposited data

Results flagged for a closer look

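In 72 groups of 4 libraries (9 groups for each of the 8 genes, by titles), 6 had a library far from the other 3 by Dixon's criterion, and chance gives about 1 in 20. In LH at the fourth collection, replicate 2 had 136 CPM of Nme1 (others 83.6 CPM to 90.5 CPM) and 44.2 CPM of Timm8b (others 21.7 CPM to 24.9 CPM), so that both flags come from the same library, of 5627529 counts. In LH at the sixth collection, replicate 1 had 115 CPM of Nme1 (others 69.0 CPM to 72.6 CPM). In HL at the sixth collection, replicate 2 had 40.8 CPM of Nme2 (others 52.0 CPM to 54.0 CPM). In LH at the third collection, replicate 1 had 21.8 CPM of Timm8b (others 29.8 CPM to 31.3 CPM), and replicate 4 had 1.24 CPM of Timm8a1 from 8 counts (others 0.123 CPM to 0.308 CPM). The cause of these values was not tested.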

How the results depend on the processing

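The names of the libraries changed more than any other choice. By number, the log2 difference of LH over HL was 0.22 for Nme2 and 0.088 for Timm10b, against -0.36 and -0.29 by titles. By number the genes past both level thresholds went from 2 to 1 (LH over HL), 2 to 0 (HH over HL) and 0 to 1 (HH over LH), those changing over collections from 1 to 0 in LH and 0 to 1 in HH, and those with a JTK_CYCLE call in LH from 0 to 2. Other changes of counts by titles were 0 in LH with the first run alone (beside 1.87% of all genes), 1 in HH without a filter on low counts (2.4%) and 2 in HH with DESeq2 (1.19%). With a cosine in edgeR rhythm calls were 1 in HL (Nme1, beside 1.12% of all genes) and 2 in HH (Nme1 and Nme2, beside 2.87%), and with adjustment of JTK_CYCLE over genes 0 in HH (beside 0.0226%). Leaving out a replicate gave by titles 0 to 1 genes changing in LH (beside 0.349% to 5.35% of all genes) and 0 to 1 rhythm calls in LH (0.516% to 0.811%) or HH (0.408% to 0.884%). By titles it also gave 2 to 3 genes past the level thresholds in LH over HL (0.665% to 1.64%) and in HH over HL (0.689% to 2.43%), the additional gene being Nme1 without replicate 2 of LH. By number, leave-outs (chosen after seeing the data) gave 0 to 1 genes changing in LH (0.359% to 1.19%), 0 to 2 in HH (0.191% to 1.73%), 0 to 1 rhythm calls in LH (0.42% to 1.45%) and 0 to 2 genes past the thresholds in LH over HL (0.791% to 2.59%) and HH over LH (1.15% to 3.42%). No edgeR fit by number was made without replicate 1 of LH, which holds the single library of LH at 16 h.

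Titles share replicate numbers, but the same-numbered libraries did not deviate together (median r = -0.01 over 53 pairs, against -0.00 over 159 pairs of different number). These pairs were formed by titles, so this says nothing of replicate numbers under the other assignment. The replicate block left the counts by titles at 0 in HL, 1 in LH and 0 in HH, and by number gave 1 in LH (Nme1, edgeR adjusted p = 0.0111, beside 3.49% of all genes) and 2 in HH (Nme1 and Nme2, adjusted p = 0.00543 and 0.0276, beside 2.14%).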
